A study of Xenopus tropicalis with 21 samples.

Results

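The galactose pathway was followed in the liver of female Xenopus tropicalis frogs through 8 genes, galt, galk1, galk2, gale, galm, pgm1, ugp2 and glb1, out of 20288 gene rows measured. Rows were taken where the gene name, in lower case, equalled one of these symbols, and each symbol gave 1 row. Of the 8, galt was picked because its level was lower in the BaP lineage in both generations, so its values below are a description and not a test. The other 7 were included as its metabolic partners.

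The frogs were mature females of an F1 and an F2 generation, and all of them were kept without exposure. In the BaP lineage the F0 ancestors had lived in benzo[a]pyrene (BaP), a polycyclic aromatic hydrocarbon, at 50 ng/L from tadpole to mature adult, and in the control lineage they are labelled as controls. There were 6 F1 BaP, 5 F1 control, 5 F2 BaP and 5 F2 control frogs, each with its own liver library. The labels give no age, no strain and no kinship among the frogs, and frogs of 1 group that share parents would not be independent.

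Galactose enters central metabolism through the Leloir pathway, for which the liver is a main site. The mutarotase encoded by galm turns the sugar into the form that galactokinase phosphorylates. The transferase encoded by galt then swaps galactose 1-phosphate with UDP-glucose, which yields UDP-galactose and glucose 1-phosphate. The epimerase encoded by gale converts UDP-galactose and UDP-glucose into each other. The gene ugp2 encodes the enzyme that makes UDP-glucose, and pgm1 encodes the mutase that passes glucose 1-phosphate on toward glycolysis. In humans, loss of GALT causes classic galactosemia.

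Levels are FPKM, the fragments counted per kilobase of transcript relative to all mapped fragments, and the authors' deposited tables hold 1 such value per group, pooled over its frogs. No value of a single frog was given, so no SD and no depth per library can be stated. Every table sets 1 generation's BaP livers against control livers of that generation, and a gene was called where the authors' q, their p adjusted over all tested genes, was under 0.05. All 8 genes were tested by the authors in both generations. Levels of F1 and F2 stand side by side below, but the tables were normalized separately, and no difference in level between F1 and F2 was tested. Levels of all 4 groups were used together only to rank list genes by their mean and in an alternative measure of likeness to galt. That measure also takes in level differences between F1 and F2.

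The transferase gene galt (chromosome 1, 215905382 to 215914153, assembly UCB_Xtro_10.0) was lower in the BaP lineage in both generations. In the authors' deposited table for F1 it had 92.7 FPKM in BaP livers, against 255 FPKM in control livers. The log2 fold change there was -1.46 (authors' q = 0.00654), which puts BaP livers at 36.4% of the control level. In the authors' deposited table for F2 it had 70.1 FPKM in BaP livers, against 161 FPKM in control livers. The log2 fold change there was -1.20 (authors' q = 0.00755), or 43.7% of the control level. In each table the BaP group was thus the lower one. In bulk liver, fewer cells that carry galt mRNA and less galt mRNA per cell cannot be told apart. Both authors' Cuffdiff p-values were 5e-05, the smallest value that occurs in the authors' deposited tables. Other rows share this floor, such as LOC100496148 in both generations, so it does not rank galt. The authors' test statistics for galt were -1.88 in F1 and -2.03 in F2, and they do not give the authors' p under a normal distribution.

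Although lower, galt was the most abundant of the 8 transcripts in every group. In the authors' deposited table for F1, 676 of the 20288 rows had a higher FPKM than galt in BaP livers and 287 had in control livers. In F2 these numbers were 714 in BaP livers and 401 in control livers. Of the FPKM summed over the 8 genes, galt made up 48.1% in F1 BaP livers and 72.7% in F1 control livers, and 50.3% in F2 BaP livers and 65.2% in F2 control livers. Among 431 rows with at least 100 FPKM in the controls of both generations, galt was the 1 row with a log2 fold change of -1 or lower in both. This count was taken after its values were seen. In BaP livers galt lay under 100 FPKM (92.7 in F1 and 70.1 in F2), so it entered these rows through the controls only. The count is therefore a description and not a test.

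**Figure D1:**
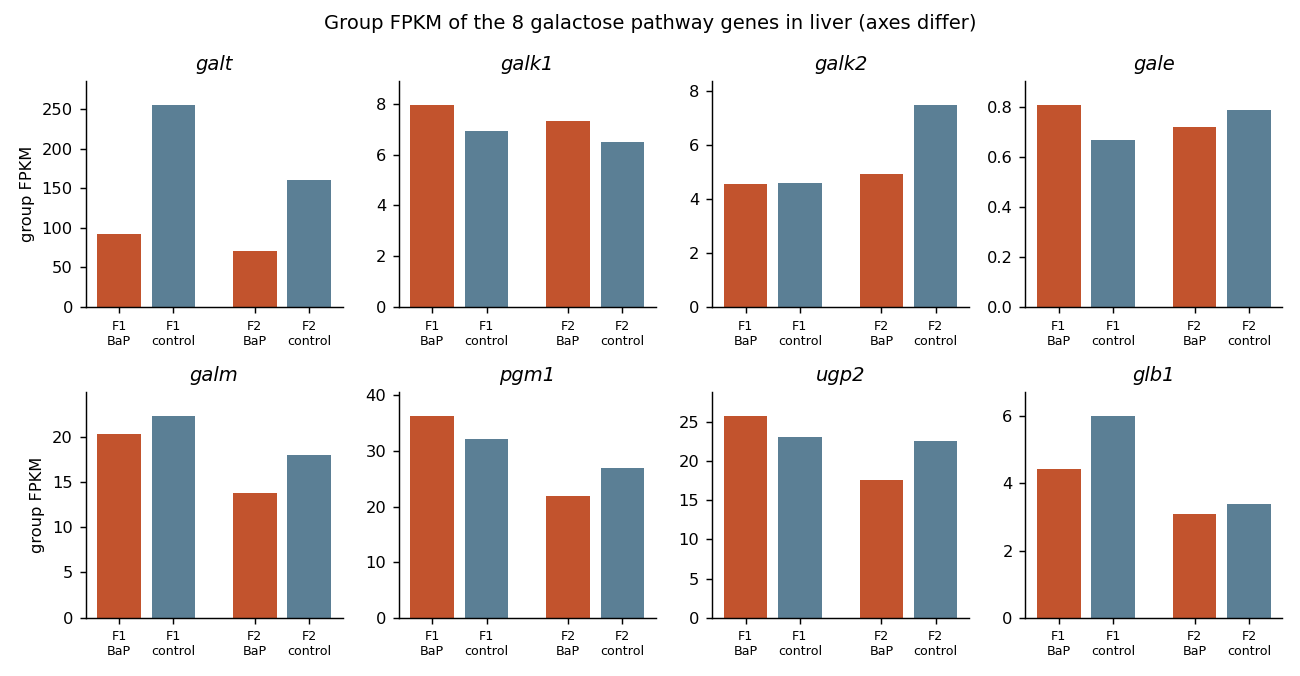
Group FPKM from the authors' deposited tables (vertical axis, starting at 0 and scaled per gene) of the 8 galactose pathway genes in F1 BaP, F1 control, F2 BaP and F2 control liver, 1 bar per group and no error bar because no values of single frogs are given. The galt bar of BaP livers lies below that of control livers in F1 (92.7 against 255 FPKM) and in F2 (70.1 against 161 FPKM).

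Rows that were not only lower but also called in both generations were few. Called lower in both generations were 3 of 11679 rows tested in both (0.0257%): galt, LOC100496148 and the skeletal muscle actin gene acta1. In either direction, 1.67% of tested genes were called in F1 and 1.32% in F2. Because galt was picked for its lower level in both generations, its place among the 3 is a description and not a test. The row LOC100496148 was at -1.49 (F1) and -1.28 (F2) on the log2 scale in the authors' deposited tables. The same tables gave acta1 -3.39 and -1.77, with q = 0.0386 in F1 as the larger of its q values. Just outside were the tight junction gene cldn15.1 and LOC108648894, each with q = 0.0621 in F1 of the authors' deposited tables, and the melanosome gene pmel with q = 0.0732 in F1. The claudin gene cldn15.1 had -1.42 in F1 and -1.58 in F2, LOC108648894 had -2.77 and -2.20, and pmel had -1.21 and -1.52, all as log2 fold changes in the authors' deposited tables.

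The partner genes were not called in either generation. By the authors' Cuffdiff test, 0 of the 7 partners passed in F1, where 1.67% of all 12426 tested genes were called, and 0 of 7 passed in F2, where 1.32% of 12236 were called. At an unadjusted p under 0.05 there were 0 of 7 in F1 and 1 of 7 in F2, against 8.91% and 8.9% of all tested genes. These shares are too close to the background to be a result about the partners. With galt included, 1 of 8 was called in each generation, which the choice of galt had fixed.

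The galactokinase gene galk1, whose product makes galactose 1-phosphate, had 7.94 FPKM in F1 BaP livers, against 6.95 FPKM in F1 control livers in the authors' deposited table. In F2 it had 7.32 FPKM in BaP livers, against 6.50 FPKM in control livers in the authors' deposited table. Its log2 fold changes of 0.19 and 0.17 were not called, and the 95% interval derived from the authors' p ran from -1.77 to 2.16 in F1 and from -1.74 to 2.08 in F2. These intervals, the widest of the 8 genes, leave a change as large as that of galt within reach. With errors from the authors' test statistic, the intervals of all 7 partners would be wider. The deposited position of galk1 (chromosome 10, 44726928 to 44807709) is shared by 4 rows and also spans itgb4, LOC100486003 and h3-3b, whereas the gene itself lies at 44770843 to 44786597, so its level is uncertain where reads of overlapping genes could be split.

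The second kinase gene, galk2 (chromosome 3, 104141964 to 104212839), whose mammalian product acts on N-acetylgalactosamine, was the 1 partner with an unadjusted p under 0.05. Its F2 levels were 4.91 FPKM in BaP livers, against 7.46 FPKM in control livers in the authors' deposited table, a log2 fold change of -0.60 (p = 0.031, q = 0.459). In F1 it had 4.54 FPKM in BaP livers, against 4.57 FPKM in control livers in the authors' deposited table, a log2 fold change of -0.01. The F2 value does not pass the adjustment, and its F2 log2 fold change lay below its F1 one by a difference of -0.59, with a 95% interval of -1.47 to 0.29.

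The epimerase gene gale (chromosome 2, 90721288 to 90731378) was the lowest of the 8 in every group. It had 0.807 FPKM in F1 BaP livers, against 0.669 FPKM in F1 control livers in the authors' deposited table. In F2 it had 0.721 FPKM in BaP livers, against 0.790 FPKM in control livers in the authors' deposited table. The log2 fold changes were 0.27 and -0.13, neither called. Per length, galt was listed at 115 times the gale level in F1 BaP livers and at 381 times in F1 control livers, and at 97.3 times in F2 BaP livers and 203 times in F2 control livers. Since gale was under 1 FPKM in every group, these ratios rest on a low denominator and are uncertain. They also contain the galt levels for which galt was picked.

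The mutarotase gene galm (chromosome 5, 41637503 to 41661134), which acts before the kinase, had 20.3 FPKM in F1 BaP livers, against 22.3 FPKM in F1 control livers in the authors' deposited table. Its F2 levels were 13.8 FPKM in BaP livers, against 18.0 FPKM in control livers in the authors' deposited table. Its log2 fold changes of -0.13 in F1 and -0.39 in F2 were both negative and neither was called (authors' q = 0.757 in F2).

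The enzymes that feed UDP-glucose in and carry glucose 1-phosphate away had log2 fold changes above 0 in F1 and below 0 in F2. The mutase gene pgm1 (chromosome 4, 85002174 to 85040807) had 36.3 FPKM in F1 BaP livers, against 32.1 FPKM in F1 control livers in the authors' deposited table. In F2 it had 22.0 FPKM in BaP livers, against 26.9 FPKM in control livers in the authors' deposited table. The pyrophosphorylase gene ugp2 (chromosome 5, 32665976 to 32720980) had 25.8 FPKM in F1 BaP livers, against 23.1 FPKM in F1 control livers, and 17.5 FPKM in F2 BaP livers, against 22.6 FPKM in F2 control livers in the authors' deposited tables. The log2 fold changes of pgm1 were 0.18 in F1 and -0.29 in F2, and those of ugp2 were 0.16 and -0.36, none called.

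The row named glb1 (chromosome 9, 83934434 to 83948750) had 4.44 FPKM in F1 BaP livers, against 6.01 FPKM in F1 control livers in the authors' deposited table, a log2 fold change of -0.44 (q = 0.881). For F2 its values were 3.11 FPKM in BaP livers, against 3.39 FPKM in control livers in the authors' deposited table, a log2 fold change of -0.13. GLB1 is the lysosomal beta-galactosidase that frees galactose from glycans in mammals. The identity of this row is uncertain: the gene table gives glb1l as a synonym of it, its neighbours stk16 and ankzf1 are those of GLB1L in the human genome, and a separate glb1l lies on chromosome 6 (58611942 to 58638528). That glb1l row had 11.4 FPKM in F1 BaP livers, against 12.1 FPKM in F1 control livers, and 9.25 FPKM in F2 BaP livers, against 8.62 FPKM in F2 control livers in the authors' deposited tables. Neither row was called in either generation.

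**Figure D2:**
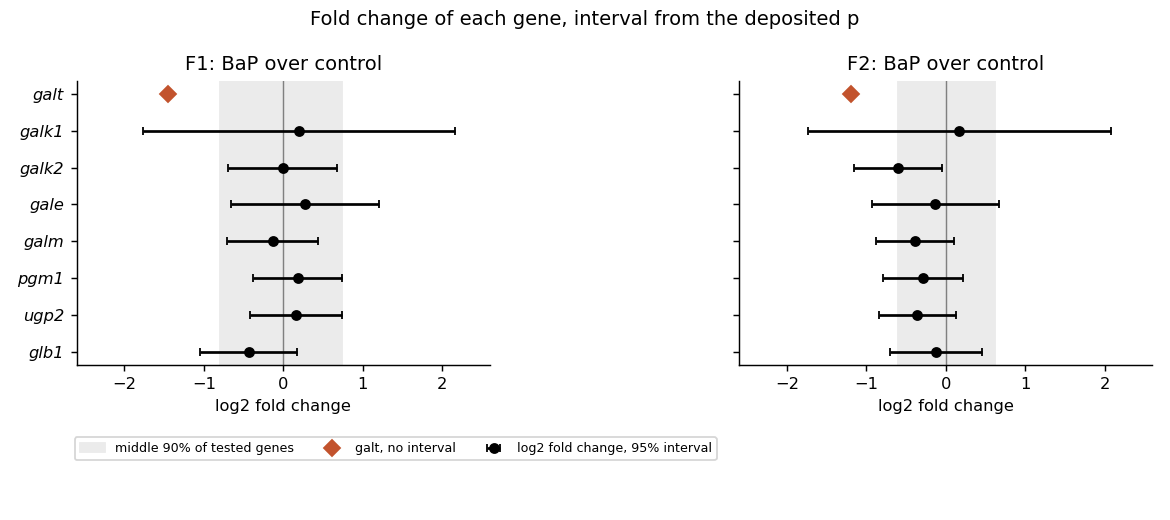
Log2 fold change of BaP over control (horizontal axis) of the 8 genes in F1 (left) and F2 (right), as black points with 95% intervals derived from the authors' p and, for galt, as a diamond with no interval because it was chosen by these values. The grey band holds the middle 90% of all tested genes. The points of the 7 partners lie between -0.44 and 0.27 in F1 and between -0.60 and 0.17 in F2, against -1.46 and -1.20 for galt.

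In all 4 groups galt, pgm1, ugp2 and galm were the 4 highest of the 8, in that order, and gale was the lowest. The kinases and glb1 changed places between them. Without values of single frogs it cannot be said which neighbours in this order differ beyond their spread. Within a group, galt was at 2.55 times the level of pgm1, the next highest, in F1 BaP livers and at 7.94 times in F1 control livers. In F2 this ratio was 3.19 in BaP livers and 5.97 in control livers. The summed FPKM of the 7 partners was 100.1 in F1 BaP livers and 95.7 in F1 control livers, and 69.4 in F2 BaP livers and 85.6 in F2 control livers.

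As a group, the partners had 3 of 7 log2 fold changes below 0 in F1, where 46.8% of all tested genes were below 0, and 6 of 7 in F2, where 54.2% were. Their median log2 fold change was 0.16 in F1, beside 0.02 over all tested genes, and -0.29 in F2, beside -0.03. These signs were not particular to the partners. Hepatocyte markers had a median of 0.28 in F1, with 12 of 15 tested above 0, and of -0.28 in F2, with 12 of 14 below 0. The generations have their own controls, so the difference between the fold changes could be tested for each partner, with standard errors taken from the authors' p. The test takes the fold changes of F1 and F2 as independent. Kinship between F1 and F2 frogs, which the labels do not give, could link them. None of the 7 differences passed (normal test across 11677 genes, Benjamini-Hochberg), where 112 genes (0.959%) did. That count of 112 was 1 with standard errors from the authors' test statistic. Of the 7 partners, 0 had an unadjusted p under 0.05, against 9.03% of genes. The lowest Benjamini-Hochberg adjusted p among the partners was 0.796. For ugp2 the difference was -0.52, with a 95% interval of -1.27 to 0.23. For pgm1 the difference was -0.47, with a 95% interval of -1.23 to 0.28. For galt the fold changes differed by 0.26, given without a test.

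The genes beside galt on chromosome 1 were read next, at most 5 on each side. Of these 10 neighbours 9 had a row, and 7 were tested in F1 and 6 in F2. None was called by Cuffdiff (authors' q under 0.05), while 3 had an unadjusted p under 0.05 in F1 and 1 in F2. Over all tested genes, 1.67% in F1 and 1.32% in F2 were called, and 8.91% and 8.9% had an unadjusted p under 0.05. The gene gba2, 10.11 kb away, encodes a non-lysosomal glucosylceramidase. It had 1.40 FPKM in F1 BaP livers, against 2.79 FPKM in F1 control livers in the authors' deposited table, a log2 fold change of -0.997 (p = 0.0067, q = 0.190). In F2 it had 1.84 FPKM in BaP livers, against 2.68 FPKM in control livers in the authors' deposited table, a log2 fold change of -0.55 (p = 0.0672, q = 0.614).

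Farther out the values lay on both sides of 0. The axonemal dynein gene dnai1 had log2 fold changes of -0.87 in F1 (p = 0.0255, q = 0.402) and -0.76 in F2 (p = 0.0115, q = 0.276) in the authors' deposited tables. LOC100494473 had -1.15 in F1 (p = 0.00645, q = 0.186) in the authors' deposited table and was not tested in F2. The dynactin subunit gene dctn3 had 0.30 in F1 and 0.26 in F2, the trafficking gene rgp1 0.04 and 0.46, and the nucleotide hydrolase gene hint2 0.59 and -0.10, as log2 fold changes in the authors' deposited tables. Of the remaining neighbours, msmp and arid3c were below the authors' limit for testing in both generations.

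**Figure D3:**
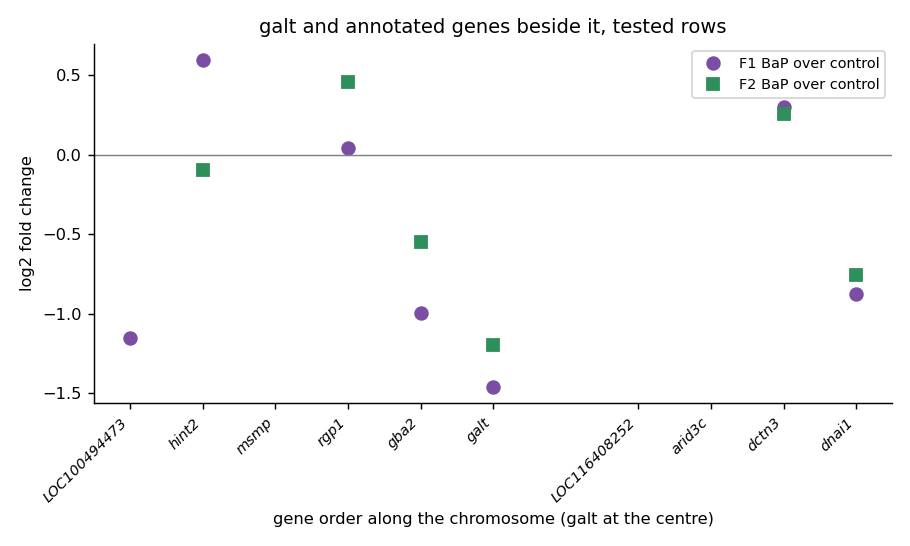
Log2 fold change of BaP over control (vertical axis) of galt and annotated genes beside it, with circles for F1 and squares for F2. The horizontal axis names galt and 9 of its 10 neighbours in their order along the chromosome, not to scale. Only rows the authors tested have a point. Genes such as msmp and arid3c therefore have none, and LOC100494473 has none in F2. The points of galt, -1.46 and -1.20, are the lowest shown, and gba2 and dnai1 lie below 0 in both generations.

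The genes most like galt were found by the Euclidean distance between the pairs of log2 fold changes, over these 2 comparisons, among 9297 other genes with a symbol and at least 1 FPKM in both tables. They were nenf (distance 0.27), which encodes a secreted factor, cldn15.1 (0.38), pmel (0.41), faim (0.41), an inhibitor of apoptosis, cox7a1 (0.41), a cytochrome c oxidase subunit found in mammalian muscle, and the muscle creatine kinase gene ckm (0.47). The nearest of these, nenf, had 0.506 FPKM in F1 BaP livers, against 1.63 FPKM in F1 control livers in the authors' deposited table. In F2 it had 0.814 FPKM in BaP livers, against 2.06 FPKM in control livers in the authors' deposited table. It thus reached 1 FPKM only in control livers. The left-out row LOC100496148 lay nearer to galt, with log2 fold changes of -1.49 in F1 and -1.28 in F2. Its F1 levels were 24.3 FPKM in BaP livers, against 68.3 FPKM in control livers in the authors' deposited table. Its F2 levels were 12.3 FPKM in BaP livers, against 29.8 FPKM in control livers in the authors' deposited table. The most abundant of the 6, cox7a1, had 10.7 FPKM in F1 BaP livers, against 27.2 FPKM in F1 control livers, and 8.76 FPKM in F2 BaP livers, against 15.2 FPKM in F2 control livers in the authors' deposited tables. All 6 were thus far less abundant than galt. Which genes are named depends on the measure: over the log2 FPKM of the 4 groups 3 of the 6 remained, and among genes reaching 5 FPKM 2 of the 6 remained.

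Transcripts of other tissues differed in the same comparisons as galt. By Cuffdiff, 3 of 5 tested skeletal muscle markers (acta1, tnnt1 and ckm) fell in F1 and 1 of 4 (acta1) in F2, against 1.67% and 1.32% of all tested genes called. Of the tested pigment cell markers 0 of 4 were called in F1, and 1 of 1 (pmel) fell in F2. At an unadjusted p under 0.05 in F1, 3 pigment cell markers were lower and 1 was higher. Their F1 log2 fold changes ran from -2.09 to 2.02. Among the other marker lists, 3 of 11 tested pancreas markers and 1 of 7 tested red cell markers (hbd) were called, all higher in F1. Of 15 tested hepatocyte markers 1, the bile acid enzyme gene cyp7a1, was called lower in F1, while 12 had log2 fold changes above 0. Of 7 tested stellate cell markers 1, the contractile gene tagln, was called lower in F2, while 5 had log2 fold changes above 0. Skeletal muscle markers, 11 rows, summed to 3.95 FPKM in F1 BaP livers, against 16.5 FPKM in F1 control livers, and to 5.62 FPKM in F2 BaP livers, against 13.1 FPKM in F2 control livers. Pigment cell markers, 9 rows, summed to 4.41 against 7.65 FPKM in F1 BaP and control livers and to 2.03 against 4.56 FPKM in F2 BaP and control livers. Listed at 0 in F1 BaP livers were tnni2, casq1, tnnc2, oca2 and tyr. In F1 control livers 1 skeletal muscle marker and 1 pigment cell marker were at 0, and in F2 none was in either group. The part of these tissues in the galt values was not tested. Hepatocyte markers, none of them listed at 0, summed to 15078.5 FPKM over 16 rows in F1 BaP livers, against 12089 FPKM in F1 control livers, and to 11700.2 FPKM over 15 rows in F2 BaP livers, against 14702 FPKM in F2 control livers. The albumin and vitellogenin genes alb and vtga2 and the complement gene c3 were left out of these sums, and the transferrin gene tf in F2, because the authors' deposited tables mark them as having too much data.

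The remaining marker sums can be read the same way. Pancreas markers, 19 rows, had 707 FPKM in F1 BaP and 623 in F1 control livers, and 348 in F2 BaP and 336 in F2 control livers. Single pancreas markers differed more than these sums: 9 of 11 tested log2 fold changes were above 0 in F1 and 5 of 6 in F2. Listed at 0 were 2 of the 19 in F1 BaP and 8 in F1 control livers, and 3 in F2 BaP and 6 in F2 control livers, with prss2 and pnlip at 0 in both BaP groups. The protease genes ctrb2, cpb1 and ctrc were called higher in F1, 3 of 11 tested, and none of 6 was called by Cuffdiff in F2, where 3 had an unadjusted p under 0.05. Red cell markers, 7 rows besides the overloaded hba1 and hbg1, had 653 FPKM in F1 BaP and 403 in F1 control livers, and 1039 in F2 BaP and 1109 in F2 control livers. Leukocyte markers had 197 FPKM in F1 BaP and 172 in F1 control livers, and 158 in F2 BaP and 138 in F2 control livers. Endothelial markers had 134 FPKM in F1 BaP and 135 in F1 control livers, and 56.7 in F2 BaP and 46.7 in F2 control livers. Bile duct markers had 727 FPKM in F1 BaP and 744 in F1 control livers, and 943 in F2 BaP and 920 in F2 control livers. Stellate cell markers had 151 FPKM in F1 BaP and 146 in F1 control livers, and 113 in F2 BaP and 111 in F2 control livers.

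Around the pathway, 7 lists of connected genes were read, with 108 rows in all. None of their 84 genes tested in F1 and none of their 89 tested in F2 was called by Cuffdiff, against 1.67% and 1.32% of all tested genes. At an unadjusted p under 0.05 there were 6 higher and 5 lower in F1, against 4.35% higher and 4.55% lower over all tested genes, and 1 higher and 6 lower in F2, against 4.41% and 4.49%.

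Genes that use UDP-glucose or carry UDP-sugars had a median log2 fold change of 0.06 over 11 tested in F1 and -0.09 over 13 in F2. The endoplasmic reticulum transporter gene slc35b1, the highest by its mean over the 4 groups, had 100.4 FPKM in F1 BaP livers, against 80.2 FPKM in F1 control livers, and 18.2 FPKM in F2 BaP livers, against 17.3 FPKM in F2 control livers in the authors' deposited tables. The transporter gene slc35a3.2 had log2 fold changes of 0.17 and -0.07, and the glycogen primer gene gyg1 0.13 and -0.07, in F1 and F2 of the authors' deposited tables. Galactosyltransferases and related genes were read as a list, and most of them encode enzymes that spend UDP-galactose on glycans. Others, such as b3galnt2 and c1galt1c1, do not. The median log2 fold change of the list was 0.00 over 11 tested in F1 and 0.08 over 13 in F2. Of these, b4galt1.1 had 0.33 and -0.05, b4galt7 -0.07 and 0.24, and b3galt5.3 -0.02 and 0.30 as log2 fold changes in F1 and F2 of the authors' deposited tables.

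Genes of the lysosomal release of galactose and of glycolipid breakdown had a median log2 fold change of -0.03 in F1 and -0.11 in F2, over 12 tested in each. The activator protein gene psap had 0.15 and -0.14, the protective protein gene ctsa 0.08 and -0.07, and the hexosaminidase gene hexb 0.19 and 0.07 in F1 and F2 of the authors' deposited tables. Hexosamine genes, which lead to the amino sugars of glycans, had a median of 0.05 in F1 and 0.14 in F2, over 13 tested in each. The acetyltransferase gene gnpnat1 had 38.9 FPKM in F2 BaP livers, against 26.0 FPKM in F2 control livers in the authors' deposited table, a log2 fold change of 0.58 (p = 0.0391, q = 0.506), and 0.09 as its log2 fold change in F1. The deaminase gene gnpda1 had -0.48 and 0.29, and the kinase gene nagk 0.02 and 0.20, in F1 and F2 of the authors' deposited tables.

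Glucose 1-phosphate and glycogen genes had a median log2 fold change of 0.07 over 19 tested in F1 and -0.20 over 20 in F2. The glucose 6-phosphatase genes, which release glucose from liver, were the highest by their mean over the 4 groups, and reads could be split among their copies. For g6pc.2 the authors' deposited table gave 258 FPKM in F1 BaP livers, against 55.3 FPKM in F1 control livers (log2 fold change 2.22, p = 0.00125, q = 0.0631), just short of a call. Its F2 levels were 197 FPKM in BaP livers, against 166 FPKM in control livers in the authors' deposited table, a log2 fold change of 0.25. The copies g6pc.1 and g6pc.3 had 1.69 and 1.71 in F1 (q = 0.935 and 0.972), and -0.93 and -0.18 in F2 (q = 0.267 and 0.991), as log2 fold changes in the authors' deposited tables. The branching enzyme gene gbe1, chosen after its values were seen, had 2.61 FPKM in F2 BaP livers, against 4.84 FPKM in F2 control livers in the authors' deposited table, a log2 fold change of -0.89 (p = 0.00155, q = 0.0866), and a log2 fold change of -0.04 in F1.

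Polyol and aldose side routes, through which sugars pass outside the galactokinase step, had a median log2 fold change of 0.05 in F1 and -0.31 in F2, over 8 tested in each. The sorbitol dehydrogenase gene sord had 0.11 and -0.12, and the crystallin gene cryl1 -0.16 and -0.53, as log2 fold changes in F1 and F2 of the authors' deposited tables. The fructokinase gene khk, chosen after its values were seen, had 34.0 FPKM in F1 BaP livers, against 75.7 FPKM in F1 control livers in the authors' deposited table, a log2 fold change of -1.16 (p = 0.00355, q = 0.126), and a log2 fold change of -0.31 in F2.

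Sugar uptake genes had a median log2 fold change of 0.17 in F1 and -0.32 in F2, over 10 tested in each. The hepatic glucose and galactose carrier gene slc2a2 had 49.6 FPKM in F1 BaP livers, against 21.8 FPKM in F1 control livers in the authors' deposited table, a log2 fold change of 1.18 (p = 0.0105, q = 0.248). In F2 it had 110.0 FPKM in BaP livers, against 137 FPKM in control livers in the authors' deposited table, a log2 fold change of -0.32. The urate carrier gene slc2a9 had 0.93 and -0.55, and the fructose carrier gene slc2a5 0.40 and -0.33, as log2 fold changes in F1 and F2 of the authors' deposited tables. None of these values was called.

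**Figure D4:**
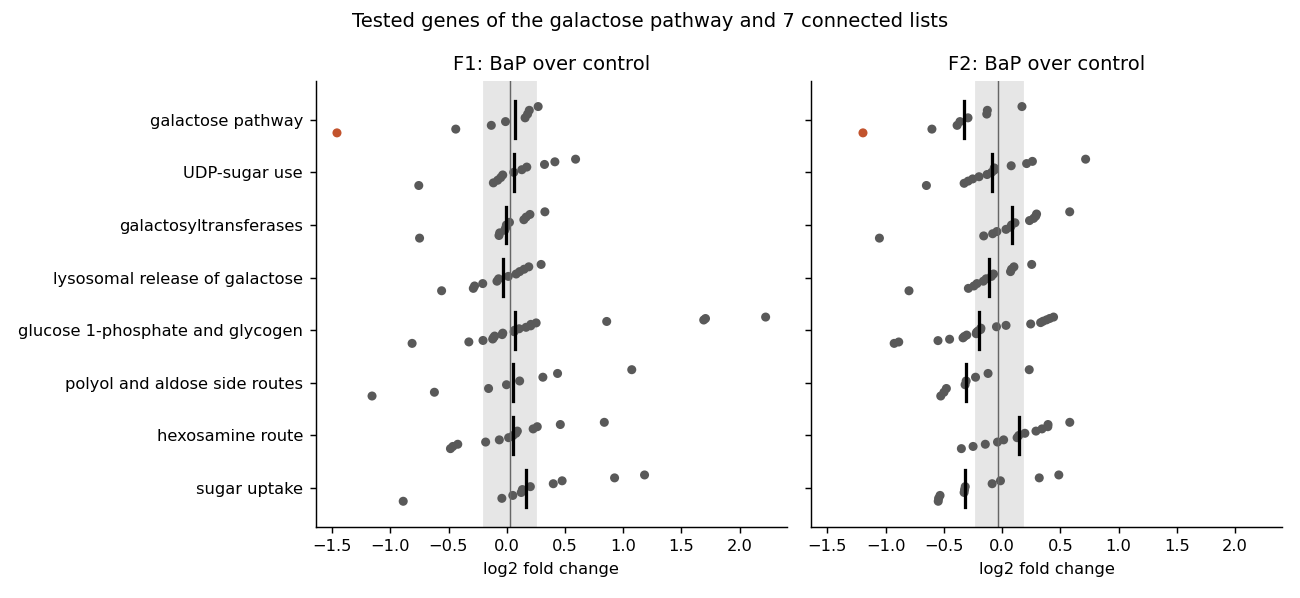
Log2 fold change of BaP over control (horizontal axis) of every tested gene of the galactose pathway and of the 7 connected lists (rows) in F1 (left) and F2 (right), with a thick black bar at each list's median. The grey band holds the middle 50% of all tested genes and the thin line their median (0.02 in F1 and -0.03 in F2). Called genes are orange, and galt, at -1.46 and -1.20, is the 1 orange point in each panel.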

How the data were processed

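Total RNA from 15 mg of liver of each of 21 frogs was made into stranded mRNA libraries and read as 75 bp reads, per the labels' protocols. Tools named in the submitters' processing notes, without roles or parameters, are Cufflinks 0.0.7, Cuffdiff 0.0.7, HISAT2 and Trimmomatic 0.32.1. Per the file headers, each of the deposited tables holds the Cuffdiff output for 1 generation, BaP against control. The deposited FPKM is pooled by group, the authors' log2 values are BaP divided by control without a pseudocount, and the authors' p-value and q-value stand beside a test statistic, a score. Replicates, depth and library batches could not be examined in these pooled values.

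The standard error of a fold change was taken as its size over the normal quantile of the authors' p. The F2 minus F1 difference was tested with these errors across 11677 genes and adjusted by Benjamini-Hochberg (scipy 1.17.1). A run on simulated data drew normal noise with these same errors. It could therefore check the calculation only, and not whether the errors are right. Of 20077 single names, all were found in the RefSeq gene table of UCB_Xtro_10.0, and 91.6% had identical ends, so positions are on that assembly, counted from 1. Members and lists were chosen with earlier results of these data known. Named were all members, up to 5 neighbours of galt on each side, the 6 genes most like it, the rows called lower in both generations with the 3 next to them, and of each list the called genes and the 3 with the highest mean FPKM. Of the genes so named, 2 are not reported here, though they stay in the counts and medians. Alternatives were other q thresholds, a fold minimum of 1.5, recomputed q, FPKM minimums of 1 and 5, pseudocounts of 0.1 and 1 FPKM, centred fold changes and errors from the test statistic.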

Additional observations from a re-analysis of the deposited data

How the results depend on the processing

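The call of 1 member, galt, in each generation held under every threshold tried (a q limit of 0.01 or 0.1, at least a 1.5-fold change, q recomputed over all tested rows or over rows reaching 1 FPKM). Because galt was picked for its level in these same tables, this is a description and lends its call no support. All 48 recomputed log2 fold changes of the 8 genes, with pseudocounts or centred, lay within 1 standard error of the deposited value, with a largest shift of 0.16. Pseudocounts only move a fold change toward 0, and centring moved all by 0.02 in F1 or 0.03 in F2, so large shifts could hardly occur. Counts over all genes moved more: in F1, 207 calls became 95 at q under 0.01 and 315 at q under 0.1, and in F2, 162 became 81 at q under 0.01. The count of genes whose F2 minus F1 difference passed was 112 with errors from the authors' p and 1 with errors from their test statistic. The cause was not tested. No partner of galt passed under any of these settings. Of the 6 genes most like galt, 3 remained over the log2 FPKM of the 4 groups and 2 among genes reaching 5 FPKM. Leaving out single frogs was not run, because the tables hold group values. No paired analysis was possible, because the columns hold pooled group values and the labels name no pairs of frogs. The pooled values leave the depth of each library unknown.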
